A study of Mus musculus with 6 samples.

Results

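Described here are 58 genes of mitosis and of the passage from the G2 phase into mitosis, out of 23284 listed in each count table. They were chosen by name from textbook roles, with earlier results of these data known. All 58 were present in every table and all 58 passed the filter on low counts, among 10512 genes tested. They fall into 9 roles: CDK1, its cyclins and their regulators (8 genes), mitotic kinases and the chromosomal passenger complex (7), kinesins (7), kinetochore and centromere proteins (7), the spindle checkpoint (5), anaphase onset (4), spindle assembly (10), cytokinesis (4), and chromosome structure with other G2/M genes (6).

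Cells enter mitosis when the kinase CDK1, bound to a B-type cyclin, is activated by phosphatases of the CDC25 family. Motor proteins and microtubule regulators then build the spindle, kinetochores tie chromosomes to it, and the spindle checkpoint holds back the anaphase-promoting complex until all chromosomes are attached. Erythroblasts, the nucleated precursors of red cells, divide several times while they mature and condense their chromatin. Transcripts of mitosis genes peak in G2 and M, so that their level in a cell population follows both the share of cells in these phases and the amount per cell. In bulk RNA, as here, fewer cells of a phase and less RNA per cell cannot be told apart.

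Polyadenylated RNA was sequenced from live Ter119+ CD71+ erythroblasts sorted from C57BL/6 mouse embryos at E10.5, with fetal blood given as the source in the design text and fetal liver in the sample labels. The null group held 3 libraries with the genotype SETD8fl/fl EpoR Cre, in which Cre recombinase is driven from the locus of the erythropoietin receptor and so acts in the erythroid lineage. Among the 3 control libraries were control replicates 1 and 3 with the genotype Setd8 +/+ EpoRCre, which carry Cre and intact Setd8, and control replicate 2 with Setd8 fl/fl EpoR WT, which carries floxed alleles and no Cre. Setd8 (also named Kmt5a) encodes the methyltransferase that adds a single methyl group to lysine 20 of histone H4, and the series title names the cell cycle and chromatin condensation as its subject. The sources used here do not say whether a library holds 1 embryo or a pool, so the p-values below measure the spread between these libraries, which may be technical in part.

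The libraries held 7756940 to 21434719 counts assigned to genes. Their titles fall into 2 sets, an unlettered set (control replicates 1 and 2 and null replicate 1) and a set with a trailing letter (control replicate 3 and null replicates 2 and 3), and tests were run on the group term by itself (group alone) and on the group term beside a title set term (set-adjusted). Setd8 stood at 73.8, 74.7 and 203.2 CPM (counts per 1000000, scaled by TMM factors) in control replicates 1, 2 and 3 and at 48.8, 100.1 and 96.2 CPM in the null replicates, lower in the null libraries within each set, although reads from exons that Cre does not remove may be counted. Summed over 12 erythroid markers, led by the embryonic globins Hbb-y, Hbb-bh1 and Hba-x, the level was 347673 to 525545 CPM in controls and 214077 to 504362 CPM in null libraries (3 of 10 tested were lower set-adjusted). Markers of other blood and vessel cells were at low levels, with higher sums in every null library than in any control. The 14 macrophage genes summed to 1.97 to 10.6 CPM in controls and 33.4 to 94.8 CPM in null libraries (3 of 6 tested were higher set-adjusted), and the 11 endothelial genes to 3.78 to 12.7 and 28.9 to 44.7 CPM (4 of 5 higher), with Emcn and Cldn5 at 0 reads throughout. The 8 megakaryocyte genes summed to 14.3 to 35.6 and 42.6 to 84.4 CPM (1 of 5 higher), the 7 progenitor genes to 3.62 to 7.66 and 15.3 to 30.4 CPM (1 of 4 higher), and the 11 hepatic genes to 0.691 to 4.13 and 0.206 to 5.02 CPM with none tested and Alb and Fgb at 0. Y-linked transcripts were present in control replicate 1 and all 3 null libraries and near 0 in control replicates 2 and 3. The part of these differences in the results below was not tested.

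Most mitosis genes had a lower value in Setd8 null erythroblasts, with 16 that fell and 3 that rose once the title set was a term. Together the 58 genes stood at 8532, 8165 and 8542 CPM in control replicates 1, 2 and 3. In null replicates 1, 2 and 3 they stood at 6614, 6306 and 6814 CPM, with no overlap between the groups after TMM scaling. The TMM factors ran from 0.801 in null replicate 1 to 1.27 in null replicate 3. Without them the shares of assigned counts overlapped, at 0.743, 0.716 and 0.929% in controls and 0.530, 0.743 and 0.868% in null libraries. Within each title set the null shares lay below the control shares. The set-adjusted log2 ratio of null to control was below 0 for 50 of the 58 genes, against 47.6% of all tested genes, and its median was -0.46 against 0.044 over all tested genes (-0.51 and -0.0065 when globin genes were left out of the scaling). By edgeR's quasi-likelihood test with Benjamini-Hochberg adjustment over all tested genes, 16 of the 58 fell and 3 rose set-adjusted, where 4.16% of all tested genes fell and 8.65% rose. Of the 16, 7 fell by more than 2-fold, against 1.64% of all genes. With group alone 1 rose, Psrc1, and 0 fell (1.14% of all genes rose and 0.00951% fell), while 23 of the 58 had an unadjusted p under 0.05, against 15.6% of all tested genes. DESeq2 with group alone called 3 of the 58 higher and 9 lower, against 6.63% and 1.87% of all tested genes. With group alone the median was -0.43, against 0.13 over all tested genes.

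The count of genes that fell rested on few libraries. Control replicate 3 was the only lettered control and null replicate 1 the only unlettered null. A set-adjusted fit without either takes its ratio from the other title set alone. A call lost there, here and in the roles below, cannot be told apart from that loss of a whole set. Set-adjusted, 9, 13 and 5 mitosis genes fell when control replicate 1, 2 or 3 was dropped, and 4, 12 and 24 when null replicate 1, 2 or 3 was. Counts over all tested genes moved too, from 437 with every library to 223, 213 and 180 without control replicate 1, 2 or 3. They were 40, 235 and 734 without null replicate 1, 2 or 3, with 10858 to 11276 genes tested in these fits. Set-adjusted, DESeq2 called 3 higher and 28 lower, against 12.0% and 8.39% of all tested genes. The median ratio of the 58 genes moved far less, from -0.57 to -0.45 over these 6 fits with 1 library left out. All 19 called genes kept their direction in all 6 fits, and so did 51 of all 58 genes, called or not. Each of these fits shares most of its libraries with the fit that made the calls. Of the 19, 3 genes, Psrc1, Cdc25b and Mki67, were called in every fit. With the presence of Y-linked transcripts as a further term 2 of the 58 fell and 2 rose, against 0.590% and 1.53% of all tested genes. The median ratio of the 58 in that fit was -0.50, against 0.095 over all tested genes. The genes that fell in that fit were Mki67 (log2 ratio -1.39, adjusted p = 0.0240) and Ccna2 (-1.64, adjusted p = 0.0116), and those that rose were Psrc1 (3.02, adjusted p = 0.00687) and Pttg1 (2.25, adjusted p = 0.0256, edgeR in each case). For 24 of the 58 genes all null libraries were below all control libraries, against 9.16% of all tested genes, and in 4 every null library lay above every control, against 14.9%. The 4 were Psrc1, Cdc25b, Gtse1 and Ube2c.

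**Figure D1:**
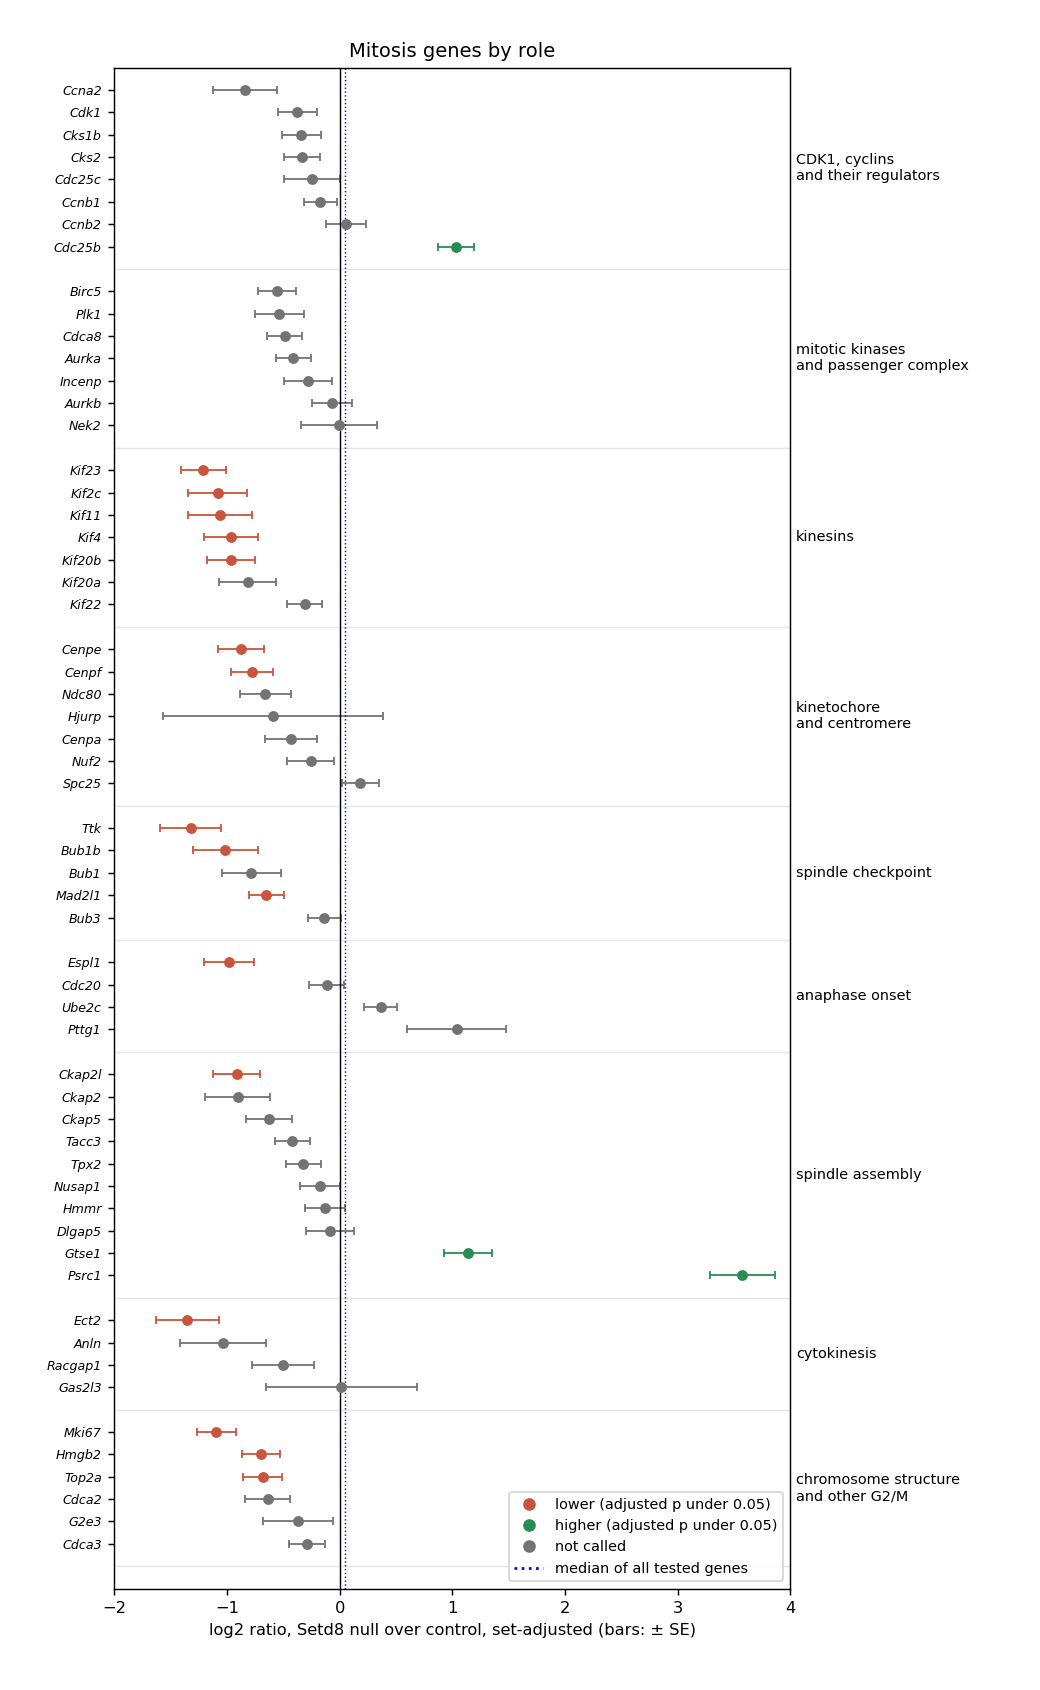
Log2 ratio of Setd8 null to control for the 58 mitosis genes, set-adjusted, grouped by role; points are estimates, bars are standard errors, and the dotted line is the median of all tested genes (0.044). All kinesins and checkpoint genes have ratios below 0, as do the mitotic kinases and the chromosome structure genes, and Psrc1 lies farthest to the right at 3.57.

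Most promoters of these genes share sequence letters that the choice by name did not use. Many mitotic promoters are known to carry a cell cycle genes homology region (CHR), which the DREAM and MuvB complexes bind, near CCAAT boxes, which the factor NF-Y binds. RefSeq promoter windows (build GRCm38.p6, 250 bases before to 50 after a start, the first listed start per gene) were at hand for 50 of the 58 genes. The CHR letters TTTGAA or TTCGAA, on either strand, occurred in 38 of 50 windows (76%), against 13.7% of the windows of 7574 tested genes and 19.4% of those of all 27025 genes with a window of that length. The letters CCAAT, on either strand, occurred in 39 (78%), against 40.1% and 37.9%, and at least 2 separate CCAAT matches in 28 (56%), against 15.8% and 12%. Both motifs occurred together in 34 windows (68%), against 6.21% and 7.7%, and overlapped each other in 1 of them. Overlapping matches of a motif were counted once, and a match is a description of letters, not a bound site.

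The CHR letters were in 14 of 16 windows of genes that fell (87.5%), in 22 of 31 of genes not called (71%) and in 2 of 3 of genes that rose, and the difference was not tested. As examples, the 250 bases before the start of 6 genes follow, 5′ to 3′ on the strand of the gene. Matches to CHR or CCAAT letters are in capitals. The genes were picked after their values were seen, Top2a and Kif11 from those that fell, Cdk1, Cdc20 and Ube2c from those not called and Psrc1 as the gene that rose most. They lie at chr11:99024190-99024439 (minus strand), chr19:37376132-37376381 (plus), chr10:69352913-69353162 (minus), chr4:118437344-118437593 (minus), chr2:164769679-164769928 (plus) and chr3:108383554-108383803 (plus) in GRCm38.p6, in that order.
Top2a: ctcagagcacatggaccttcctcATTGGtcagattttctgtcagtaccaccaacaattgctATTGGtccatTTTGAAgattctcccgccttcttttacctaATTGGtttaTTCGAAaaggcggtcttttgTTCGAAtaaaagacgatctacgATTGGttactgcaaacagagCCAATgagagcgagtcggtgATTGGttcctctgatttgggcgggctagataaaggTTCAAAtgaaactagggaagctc
Kif11: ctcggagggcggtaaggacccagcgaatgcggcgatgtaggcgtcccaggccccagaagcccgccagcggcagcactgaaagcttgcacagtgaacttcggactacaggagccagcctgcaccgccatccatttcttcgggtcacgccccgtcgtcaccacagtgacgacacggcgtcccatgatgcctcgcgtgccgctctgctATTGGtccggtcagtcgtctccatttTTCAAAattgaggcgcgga
Cdk1: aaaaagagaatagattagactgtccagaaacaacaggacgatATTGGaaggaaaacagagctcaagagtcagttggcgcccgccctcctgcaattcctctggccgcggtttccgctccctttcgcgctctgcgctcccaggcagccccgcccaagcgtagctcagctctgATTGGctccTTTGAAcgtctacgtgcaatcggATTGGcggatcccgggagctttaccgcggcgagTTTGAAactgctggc
Cdc20: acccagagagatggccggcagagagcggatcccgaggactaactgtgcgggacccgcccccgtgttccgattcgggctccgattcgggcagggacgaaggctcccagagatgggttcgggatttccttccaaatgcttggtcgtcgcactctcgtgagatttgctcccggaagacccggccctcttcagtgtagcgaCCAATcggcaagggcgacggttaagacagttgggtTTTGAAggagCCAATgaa
Ube2c: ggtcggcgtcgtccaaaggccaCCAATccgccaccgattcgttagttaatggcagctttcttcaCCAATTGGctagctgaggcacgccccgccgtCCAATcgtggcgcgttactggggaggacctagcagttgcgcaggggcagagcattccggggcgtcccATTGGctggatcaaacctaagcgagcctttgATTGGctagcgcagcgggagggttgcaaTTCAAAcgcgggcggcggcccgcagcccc
Psrc1: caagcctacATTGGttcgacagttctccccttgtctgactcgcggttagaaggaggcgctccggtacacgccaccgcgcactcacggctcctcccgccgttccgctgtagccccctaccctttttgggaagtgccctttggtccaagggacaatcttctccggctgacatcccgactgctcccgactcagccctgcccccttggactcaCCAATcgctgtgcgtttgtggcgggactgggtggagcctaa
The Top2a promoter held the most matches, 4 CHR and 6 CCAAT. In Cdc20 a CHR match and a CCAAT match stood within a few bases of each other just before the start. The 250 bases before Psrc1 held 2 CCAAT matches and no CHR match, and the CHR match counted for its full window lies after the start, outside the stretch shown. Psrc1 was no exception in this, since a CHR match after the start was also found in many other windows, such as those of Plk1, Kif23, Cenpf and Ttk. Gtse1 was the gene that rose without CHR letters in its window. The windows of Birc5, Nuf2, Mad2l1, Pttg1, Nusap1, Tacc3 and G2e3 held neither motif.

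**Figure D2:**
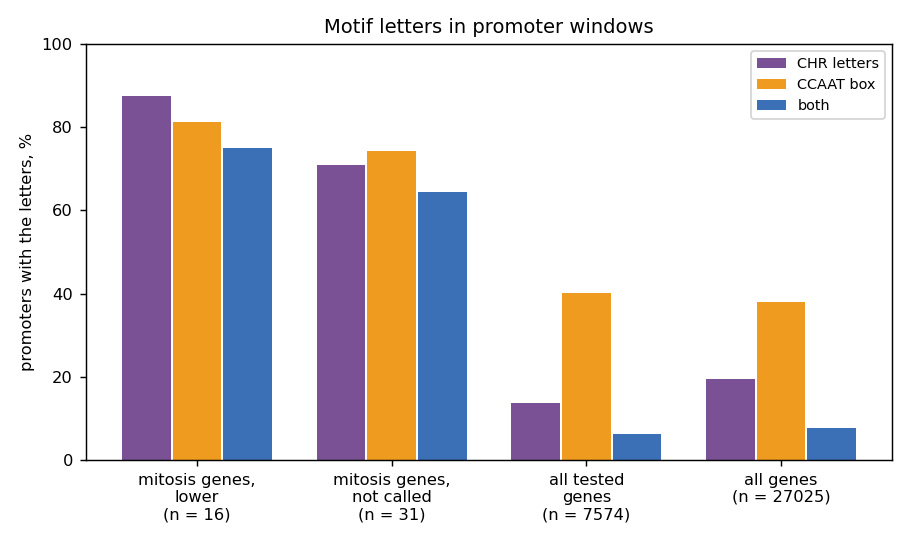
Percent of 300-base promoter windows with CHR letters, CCAAT letters or both, for mitosis genes that fell set-adjusted (n = 16), mitosis genes not called (n = 31), all tested genes (n = 7574) and all genes with a window (n = 27025). Both groups of mitosis genes stand at 71% or more for CHR, against 13.7% of tested genes.

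Among CDK1, the cyclins and their regulators 0 of 8 fell and 1 rose, against 4.16% and 8.65% of all tested genes. The median set-adjusted log2 ratio was -0.29. Ccnb1, the cyclin B1 that activates CDK1, stood at 552, 574 and 396 CPM in control replicates 1, 2 and 3 and 476, 359 and 379 CPM in the null replicates. The null value lay below the controls of its own set in both sets, but the ratio was small (log2 ratio -0.17, SE 0.14, adjusted p = 0.490, edgeR). Cdk1 itself stood at 186, 176 and 139 CPM in controls against 165, 79.8 and 101 in null libraries (log2 ratio -0.38, adjusted p = 0.181). Ccna2, cyclin A2, which acts in S phase and G2, varied most between libraries, at 122, 52.7 and 296 CPM in controls against 41.3, 204 and 182 in null libraries. Its pooled groups overlapped widely, but within each set the null values lay below the controls. Its set-adjusted ratio, -0.84 (SE 0.29), did not pass (adjusted p = 0.0836, edgeR). Ccnb2, cyclin B2, was at 153 ± 49.1 CPM in controls and 171 ± 13.2 in null libraries (SD, n = 3 each). The small CDK-binding proteins Cks1b and Cks2 had ratios of -0.34 and -0.33 and did not pass.

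The CDC25 phosphatases differed from one another. Cdc25b, which starts CDK1 activation at the centrosome, stood at 255, 222 and 229 CPM in control replicates 1, 2 and 3 and at 432, 543 and 516 CPM in the null replicates. Every null library lay above every control, and Cdc25b rose by 1.03 (set-adjusted log2 ratio, SE 0.16, adjusted p = 0.00186, edgeR), a 2.05-fold change. With group alone its log2 ratio was 1.08 (adjusted p = 0.0905). Cdc25c, which also activates CDK1, was at 31.1, 41.4 and 33.9 CPM in controls against 34.6, 22.2 and 28.2 in null libraries, and its ratio of -0.25 did not pass (SE 0.25, adjusted p = 0.575).

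None of the 7 mitotic kinases and passenger complex genes passed. All 7 ratios were below 0, against 47.6% of all tested genes, with a median of -0.41. Birc5 (survivin), which anchors Aurora B at the centromere, stood at 233, 228 and 341 CPM in controls against 193, 176 and 202 in null libraries. All null values lay below all controls, and the log2 ratio of -0.56 (SE 0.17) missed the threshold (adjusted p = 0.0506, edgeR). Cdca8 (borealin), of the same complex, stood at 228, 246 and 241 CPM against 184, 149 and 167, again without overlap (log2 ratio -0.49, adjusted p = 0.0567). Aurkb, the kinase of the complex, was nearly level in the pooled means, at 108 ± 1.08 and 109 ± 20.9 CPM (SD, n = 3 each). Its log2 ratio was -0.28 in the unlettered set and 0.14 in the lettered set. The scaffold Incenp stood at 37.7, 33.8 and 84.8 CPM in controls against 36.1, 54.6 and 59.6 in null libraries. Incenp was level in the unlettered set and lower in the lettered set (set-adjusted log2 ratio -0.28, adjusted p = 0.427, edgeR). Aurka, the kinase of spindle poles, was at 217 ± 22.2 and 171 ± 20.6 CPM (log2 ratio -0.41, adjusted p = 0.109, edgeR). Plk1, the polo-like kinase of mitotic entry, was at 90.0 ± 14.7 and 75.5 ± 27.9 CPM. Within each set the null values of Plk1 lay below the controls (log2 ratio -0.54, adjusted p = 0.132, edgeR). Nek2, a kinase that separates centrosomes, followed the title sets, at 10.8, 7.60 and 28.7 CPM in controls against 7.88, 23.3 and 42.0 in null libraries. The protein kinases of all roles add Cdk1, Bub1, Bub1b and Ttk to Aurka, Aurkb, Plk1 and Nek2. Of these 8 kinases 2 fell, both of them checkpoint kinases, against 4.16% of all tested genes.

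Among kinesins, the motors that move along microtubules, falls were the most numerous of the 9 roles. Of 7 genes 5 fell and 0 rose set-adjusted, against 4.16% and 8.65% of all tested genes, and the median log2 ratio was -0.97. In all 7 every null library lay below every control, against 9.16% of all tested genes. Kif23, the motor of the central spindle needed for cytokinesis, stood at 75.5, 77.0 and 57.0 CPM in control replicates 1, 2 and 3 and at 31.6, 26.0 and 25.3 CPM in the null replicates. It fell by 1.21 (log2 ratio, SE 0.20, adjusted p = 0.00284, edgeR), and with group alone its ratio was -1.34 (adjusted p = 0.0684). Kif11, which pushes the spindle poles apart, stood at 104, 113 and 120 CPM in controls against 47.4, 37.7 and 87.1 in null libraries, where null replicate 3 was nearest to the controls. Kif2c, a kinesin that takes microtubules apart at centromeres, fell by 1.08 on the log2 scale, Kif11 by 1.06, Kif4, a chromosome-bound motor, by 0.97 and Kif20b by 0.96. Kif20a, a motor of the cleavage furrow, was at 176 ± 66.2 and 85.0 ± 17.8 CPM (SD, n = 3 each) and did not pass (log2 ratio -0.82, adjusted p = 0.0550). Kif22, a chromosome-bound motor, stood at 180, 189 and 162 CPM in controls against 149, 118 and 143 in null libraries, with a ratio of -0.31 that did not pass (adjusted p = 0.221). With 1 library left out the ratios of the 5 kinesins that fell stayed between -1.56 and -0.61, and Kif23 lost its call only without null replicate 1 (log2 ratio -1.16, adjusted p = 0.0611). Kif20b lost its call without control replicate 3 or null replicate 1, Kif2c without control replicate 3 or null replicate 2, Kif4 without control replicate 1, control replicate 2 or null replicate 1, and Kif11 without any 1 control or null replicate 1.

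Among 7 kinetochore and centromere genes 2 fell and 0 rose, against 4.16% and 8.65% of all tested genes, and the median log2 ratio was -0.59. Both genes that fell encode very large proteins of the outer kinetochore. Cenpe, a kinesin-like motor that carries chromosomes to the spindle equator, stood at 181, 148 and 126 CPM in controls and 84.1, 88.8 and 56.9 CPM in null libraries. All null values lay below all controls, and Cenpe fell by 0.88 (log2 ratio, SE 0.20, adjusted p = 0.0172, edgeR). Cenpf stood at 141, 125 and 92.1 CPM against 77.7, 44.9 and 61.7, also without overlap, and fell by 0.78 (adjusted p = 0.0184). The microtubule-binding NDC80 complex was uneven. Its namesake Ndc80 was at 53.0 ± 8.18 and 30.2 ± 8.64 CPM (SD, n = 3 each; log2 ratio -0.66, adjusted p = 0.0791), Nuf2 at 84.3 ± 7.88 and 77.0 ± 18.0, and Spc25 at 104, 98.4 and 115 CPM in controls against 126, 106 and 132 in null libraries (log2 ratio 0.18, adjusted p = 0.532). Cenpa, the histone H3 variant that marks centromeres, was at 62.6, 67.5 and 146 CPM in controls against 71.6, 78.8 and 68.2 in null libraries, with the lettered control standing apart. Hjurp, the chaperone that loads it, was hardly detected, at 1.14 to 4.14 CPM over all libraries, where 3 counts correspond to 0.140 to 0.387 CPM. Cenpe lost its call without control replicate 1, control replicate 3 or null replicate 1, and Cenpf without these or null replicate 2, while their ratios stayed between -1.09 and -0.74.

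Of 5 spindle checkpoint genes 3 fell and 0 rose, against 4.16% and 8.65% of all tested genes. All 5 ratios were below 0, against 47.6% of all tested genes, with a median of -0.79. Ttk, the kinase MPS1 that starts checkpoint signalling at unattached kinetochores, stood at 36.9, 43.2 and 40.6 CPM in control replicates 1, 2 and 3 and at 15.4, 13.5 and 20.2 CPM in the null replicates. The groups were well apart, and Ttk fell by 1.32 (log2 ratio, SE 0.27, adjusted p = 0.00872, edgeR). Bub1b (BUBR1), part of the complex that inhibits the anaphase-promoting complex, stood at 98.6, 111 and 102 CPM against 62.1, 25.0 and 59.2 and fell by 1.02 (adjusted p = 0.0413). Mad2l1, of the same inhibitory complex, stood at 193, 173 and 145 CPM against 127, 87.3 and 82.1 and fell by 0.65 (adjusted p = 0.0189). The kinase Bub1 was at 97.0 ± 18.7 and 56.2 ± 16.7 CPM (SD, n = 3 each), without overlap, and did not pass (log2 ratio -0.79, adjusted p = 0.0733). Bub3, which also acts outside the checkpoint, stood at 251, 231 and 184 CPM in controls against 228, 154 and 167 in null libraries, and its groups overlapped (log2 ratio -0.14, adjusted p = 0.607). Ttk lost its call without control replicate 3 or null replicate 1 (log2 ratio -1.39 and -1.28). Bub1b lost it without any 1 control or null replicate 1, and Mad2l1 without control replicates 1 or 3 or null replicates 1 or 2, with ratios from -1.35 to -0.55 for these 2 genes.

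The genes of anaphase onset went in different directions, with 1 of 4 called lower, against 4.16% of all tested genes. Espl1, the separase that cleaves cohesin, stood at 46.0, 39.9 and 69.4 CPM in controls and 19.6, 36.6 and 41.0 CPM in null libraries. The pooled groups overlapped slightly, but within each set the null values lay below the controls, and Espl1 fell by 0.98 (log2 ratio, SE 0.22, adjusted p = 0.0148, edgeR). It lost its call without control replicate 3 or null replicate 1 (log2 ratio -1.15 and -0.85). Pttg1, the securin that inhibits separase, varied widely, at 41.0, 92.9 and 151 CPM in controls against 238, 214 and 148 in null libraries. Its ratio of 1.04 (SE 0.44) did not pass (adjusted p = 0.189). Ube2c, the ubiquitin-conjugating enzyme of the anaphase-promoting complex, stood at 215, 196 and 227 CPM in controls against 275, 274 and 286 in null libraries. All null values lay above all controls, by a small step that did not pass (log2 ratio 0.36, SE 0.15, adjusted p = 0.132). Cdc20, the activator that the checkpoint holds back, was nearly level within each set, at 46.2 and 44.9 CPM in the unlettered controls against 43.1 in the null library, and at 188 CPM in the lettered control against 164 and 174 in the null libraries.

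**Figure D3:**
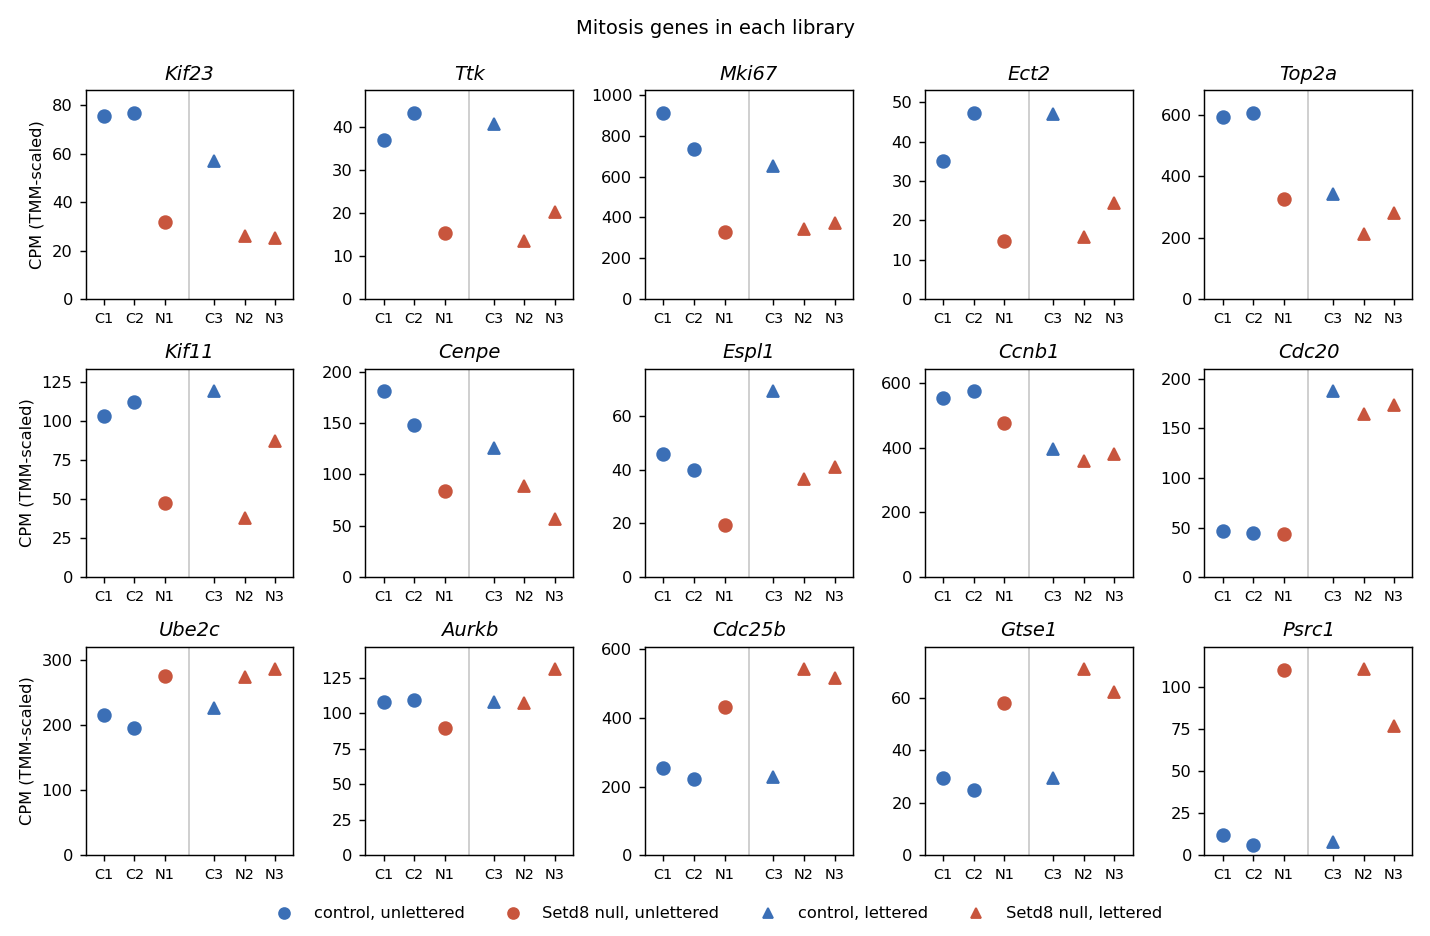
TMM-scaled CPM of 15 mitosis genes in each library, with controls in blue, Setd8 null in red, circles for the unlettered and triangles for the lettered set; each axis starts at 0. The null points lie below the controls of their set from Kif23 to Espl1 and above them for Cdc25b, Gtse1 and Psrc1, and Cdc20 differs more between sets than between groups.

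Spindle assembly held both the largest rise and a fall, 2 higher and 1 lower of 10, against 8.65% and 4.16% of all tested genes. Psrc1, a microtubule-binding spindle protein whose gene is known as a target of p53, stood at 12.1, 6.28 and 8.13 CPM in control replicates 1, 2 and 3 and at 110, 110 and 76.9 CPM in the null replicates. It rose 11.9-fold set-adjusted (log2 ratio 3.57, SE 0.29, adjusted p = 2.67e-05, edgeR) and was the only mitosis gene called with group alone (log2 ratio 3.49, adjusted p = 0.0118). That group-alone call was lost without control replicate 2 (log2 ratio 3.28, adjusted p = 0.0602) or null replicate 2 (3.36, adjusted p = 0.0997), and the set-adjusted call held in all 6 fits. Gtse1, a microtubule protein of G2 that also moves p53 out of the nucleus, stood at 29.5, 25.1 and 29.4 CPM in controls against 57.9, 71.0 and 62.5 in null libraries. It rose by 1.14 (log2 ratio, SE 0.21, adjusted p = 0.00532), and lost its call without null replicate 1 (log2 ratio 1.18, adjusted p = 0.103). Ckap2l, which stabilises spindle microtubules, stood at 139, 114 and 103 CPM against 69.0, 42.0 and 64.3 and fell by 0.92 (SE 0.20, adjusted p = 0.0140). It lost its call without control replicate 3 or null replicate 1 (log2 ratio -0.89 and -0.97).

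The other spindle assembly genes did not pass. Tacc3, which with Ckap5 stabilises spindle microtubules, stood at 157, 147 and 231 CPM in controls against 108, 181 and 184 in null libraries (log2 ratio -0.42, adjusted p = 0.0947, edgeR). Ckap5, a microtubule polymerase, was at 92.3 ± 30.1 and 49.4 ± 11.7 CPM (SD, n = 3 each), and Ckap2 at 43.5 ± 7.21 and 24.9 ± 8.70, with ratios of -0.63 and -0.90 that missed the threshold (adjusted p = 0.0635 and 0.0621). Tpx2, which activates Aurora A at the spindle, had a ratio of -0.32, Nusap1, a bundler of microtubules, of -0.18, Hmmr of -0.13 and Dlgap5 of -0.083. Hmmr was at 167 ± 2.31 CPM for controls against 158 ± 31.1 for null libraries, so that the controls were close together and the null libraries were spread to both sides of them.

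Among 4 cytokinesis genes 1 fell and 0 rose, against 4.16% and 8.65% of all tested genes. Ect2, the exchange factor that activates RhoA at the cleavage furrow, stood at 35.1, 47.4 and 47.1 CPM in control replicates 1, 2 and 3 and at 14.8, 15.7 and 24.4 CPM in the null replicates. It fell by 1.36 (log2 ratio, SE 0.28, adjusted p = 0.00943, edgeR), the lowest ratio of the 58 genes, and lost its call without control replicate 3 or null replicate 1 (log2 ratio -1.49 and -1.24). Racgap1, which binds Kif23 in the central spindle and recruits Ect2, stood at 37.9, 30.4 and 84.5 CPM in controls against 22.5, 42.7 and 85.0 in null libraries. Its lettered libraries were high in both groups, and its ratio of -0.50 did not pass (SE 0.28, adjusted p = 0.270). Anln, the anillin of the contractile ring, was at 31.1 ± 11.5 and 20.5 ± 13.4 CPM (SD, n = 3 each) with a ratio of -1.04 that did not pass (adjusted p = 0.101). Gas2l3 was at the low end, 5.62, 7.07 and 4.74 CPM in controls against 14.9, 2.67 and 1.34 in null libraries, above the controls in the unlettered set and below the control in the lettered set. The motors Kif20a, Kif20b and Kif23, given with the kinesins, also act in cytokinesis.

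Of 6 genes of chromosome structure and other G2/M roles 3 fell and 0 rose, against 4.16% and 8.65% of all tested genes. All 6 ratios were below 0, against 47.6% of all tested genes, with a median of -0.66. Mki67, the proliferation marker Ki-67 that coats mitotic chromosomes, stood at 914, 734 and 651 CPM in controls and 329, 342 and 371 CPM in null libraries. The null libraries were close together, well below every control, and Mki67 fell by 1.10 (log2 ratio, SE 0.17, adjusted p = 0.00204, edgeR), from 766 ± 134 to 347 ± 21.4 CPM (SD, n = 3 each). Hmgb2, a chromatin protein of proliferating cells, stood at 547, 528 and 871 CPM against 415, 423 and 434 and fell by 0.70 (adjusted p = 0.0185). Top2a, the topoisomerase that untangles sister chromatids, stood at 593, 607 and 343 CPM against 325, 211 and 280 and fell by 0.68 (adjusted p = 0.0250), and its lettered control was close to null replicate 1 of the other set. Hmgb2 lost its call without control replicate 3 (log2 ratio -0.39) or null replicate 2 (-0.69), and Top2a on dropping control replicates 1 or 2 or null replicates 1 or 2 (-0.69, -0.66, -0.49 and -0.68). Cdca2, which directs a phosphatase to chromatin at mitotic exit, was at 70.0 ± 7.18 and 42.6 ± 7.89 CPM without overlap and missed the threshold (log2 ratio -0.64, adjusted p = 0.0586). Cdca3 stood at 185, 161 and 191 CPM against 157, 134 and 146 (log2 ratio -0.29, adjusted p = 0.262), and the ubiquitin ligase G2e3 at 34.5 ± 6.91 and 25.0 ± 8.22.

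Null and control could also be compared within each title set, where they share no library with the other set. The median log2 ratio of the 58 genes was -0.46 in the unlettered set and -0.49 in the lettered set, against 0.082 and 0.00 over all tested genes. In 44 of the 58 genes the ratio was below 0 in both sets, against 32.5% of all tested genes. In 37 of the 58 the null values lay below the control values without overlap in both sets, against 21.5% of all tested genes, and in 4 they lay above in both, against 25.7%. Across the 58 genes the unlettered and lettered ratios gave Pearson r 0.748 and Spearman rho 0.552 (0.634 and 0.526 over all tested genes), a description, since genes are not independent replicates. Against control replicate 1 alone, which has Cre and, like null replicate 1, Y-linked transcripts, the median ratio of null replicate 1 was -0.47, and against control replicate 2, which has no Cre and lacks them, it was -0.36. The controls themselves differed by a median of -0.064 for these genes (replicate 2 relative to replicate 1), less than the distance of either from the null library.

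By the interaction of group and title set in edgeR's quasi-likelihood test, 0 of the 58 genes differed between the sets after adjustment. Over all tested genes 0.00951% were called by that test. At an unadjusted p under 0.05 there were 5 of the 58, against 7.21% of all tested genes. DESeq2 called 1, Pttg1 (adjusted p = 0.0493), but gave no adjusted p for many of the 58, among them Cenpa and Gas2l3. The share it called over all tested genes is not given here. With 2 residual degrees of freedom these tests do not show that the sets are alike. Ccnb2, Cenpa and Gas2l3 lay above the controls in the unlettered set and below the control in the lettered set, and Nuf2 the reverse. Their interaction did not pass (edgeR log2 1.13 and adjusted p = 0.568 for Cenpa, 2.47 and 0.688 for Gas2l3, 0.57 and 0.715 for Ccnb2, and -0.65 and 0.719 for Nuf2).

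**Figure D4:**
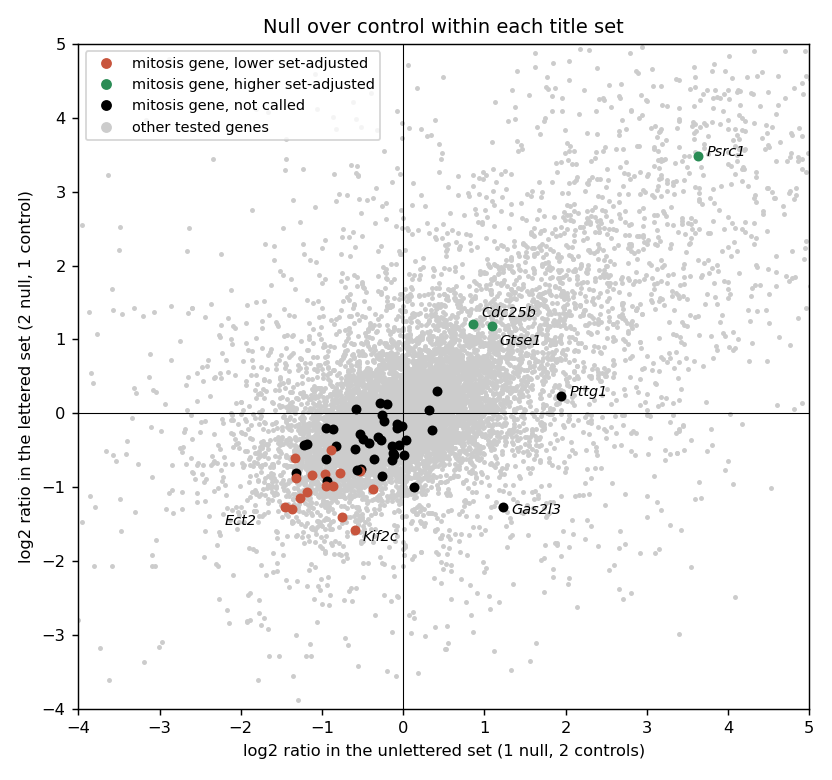
Log2 ratio of Setd8 null to control in the unlettered set (x axis) and the lettered set (y axis) for the 58 mitosis genes, coloured by their set-adjusted call, over all other tested genes in grey within the axes shown. Most mitosis genes lie at the lower left, and Psrc1, Gtse1 and Cdc25b lie above 0 in both sets.

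Some mitosis genes differed in level between the title sets regardless of group, at shares near those of all tested genes. In the set-adjusted fit 8 of the 58 were higher and 8 lower in the unlettered set, against 10.9% and 17.7% of all tested genes. The lower ones were Ccna2, Plk1, Nek2, Incenp, Cdc20, Espl1, Tacc3 and Racgap1, and the higher ones Cdk1, Ccnb1, Cks2, Cenpf, Bub3, Mad2l1, Ckap5 and Top2a. For Cdc20 the log2 difference between sets was -2.01 (adjusted p = 3.73e-06, edgeR), against a group ratio of -0.12 (adjusted p = 0.689).

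Levels can be compared between genes only per length. Divided by exon length (the union of exons in GENCODE M21, build GRCm38, while the counts rest on mm9), the highest control levels were those of Cks2, 324 ± 112 CPM per kb (SD, n = 3), Hmgb2, 247 ± 73.3, Ccnb1, 204 ± 39.1, and Cks1b, 166 ± 23.2, each within the SDs of its neighbour. Next came Cdca8 at 127 ± 5.04 and Aurka at 112 ± 11.4 CPM per kb. The lowest were Hjurp at 0.553 ± 0.255 and Gas2l3 at 0.861 ± 0.175 CPM per kb. Of the 6 genes with the highest levels per length, Hmgb2 fell and the other 5 were not called.

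The share of mitosis genes that fell was higher in longer genes. All 58 mitosis genes had an exon length. Of 23 genes under 3 kb 2 fell and 2 rose, with a median set-adjusted log2 ratio of -0.29, of 25 genes of 3 to 5 kb 7 fell and 1 rose, with a median of -0.59, and of 10 genes of 5 kb or more 7 fell and 0 rose, with a median of -0.73. Among all tested genes of the same lengths the medians were 0.18, -0.053 and -0.092, and 2.83%, 5.39% and 5.74% fell. Across the 58 genes the Spearman rho of ratio and length was -0.457, and across the 9473 tested genes with a length -0.156, both given as descriptions. With a correction of each library for exon length, chosen after these values were seen, 27 mitosis genes fell and 3 rose, against 6.64% and 8.92% of the 9473 genes tested in that fit, and their median was -0.53. Over all tested genes 629 fell in that fit and 437 of 10512 without the correction. Genes added to the calls by that correction included the short genes Cks1b (log2 ratio -0.65), Cks2 (-0.73), Aurka (-0.61), Cdca8 (-0.69) and Cenpa (-0.66). What length stands for in these libraries was not tested.

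**Figure D5:**
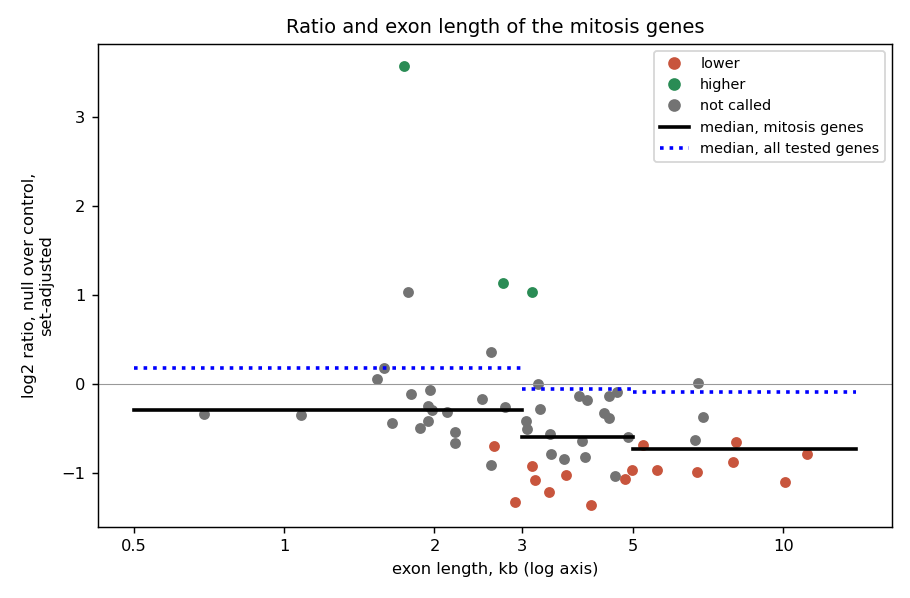
Set-adjusted log2 ratio of Setd8 null to control for the 58 mitosis genes against exon length in kb on a log axis, coloured by call; solid lines are medians of the mitosis genes and dotted lines those of all tested genes in 3 length ranges. The medians of the mitosis genes lie below those of all genes in each range, at -0.29, -0.59 and -0.73.

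Other genes of mitosis, from lists of further motors, kinetochore proteins, kinases, anaphase-promoting complex subunits, spindle and cytokinesis genes and transcription factors, were taken for comparison. Of 111 listed genes 106 were present and 105 tested. Set-adjusted 11 fell and 2 rose, against 4.16% and 8.65% of all tested genes. With group alone 0 passed (12 of 105 at an unadjusted p under 0.05, against 15.6% of all tested genes). DESeq2 with group alone called 1 higher and 8 lower, against 6.63% and 1.87% of all tested genes. The median set-adjusted log2 ratio of the 105 was -0.32, and 77 were below 0, against 47.6% of all tested genes. Without null replicate 1 only 1 fell (40 of all tested genes) and without control replicate 3 only 2 (180), while 19 fell without null replicate 3 (734). Fbxo5 (EMI1), the inhibitor of the anaphase-promoting complex, fell from 107 ± 5.45 to 48.0 ± 8.92 CPM (SD, n = 3 each; log2 ratio -1.08, adjusted p = 0.00284, edgeR), the only 1 of 16 genes of that complex and its regulators to pass. Aspm, a spindle pole protein, fell by 1.36 on the log2 scale, Haus6, of the augmin complex, by 0.93 and Numa1 by 0.84, the 3 of 19 further spindle genes that passed.

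Of 7 further kinesins 1 fell, Kif18a, which limits chromosome movement, from 38.0 ± 8.63 to 16.5 ± 0.261 CPM (SD, n = 3 each; log2 ratio -1.27, adjusted p = 0.00811, edgeR). Of 31 further kinetochore genes 4 fell and 2 rose. Among them the scaffold Casc5 (KNL1) fell by 1.06 on the log2 scale, Cenpi had a ratio of -0.95 and fell only just (adjusted p = 0.0484), and Cenpt rose from 31.4 ± 13.7 to 50.1 ± 28.5 CPM with a ratio of 1.07 (adjusted p = 0.0229), its groups overlapping in the pooled values. Plk4, the kinase of centriole duplication, was the 1 of 12 further kinases and regulators that fell (log2 ratio -1.37, adjusted p = 0.0164), and Shcbp1, a partner of the central spindle, the 1 of 10 further cytokinesis genes (log2 ratio -0.81, adjusted p = 0.0164). Of 10 transcription factors of mitotic genes, among them Foxm1, Mybl2 and the MuvB subunits, 0 passed in either fit (edgeR, with 3 of 10 at an unadjusted p under 0.05 set-adjusted, against 27.8% of all tested genes), and their median ratio was -0.46. With 1 library left out these ratios kept their sign, while Kif18a, Casc5, Plk4 and Shcbp1 lost their calls without control replicate 3 or null replicate 1, Aspm without null replicate 1, Fbxo5 without control replicate 3, and Cenpi, Cenpt, Haus6 and Numa1 in every fit but that without null replicate 3.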

How the data were processed

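Each of the 6 libraries had one table of whole-number read counts per gene as deposited by the authors. Per the submitters' processing notes the tools included FastQC, Trimmomatic 0.32, TopHat2 2.1.0, HTSeq 0.6.1 and edgeR, with build mm9, while the sources used here do not give the strand setting of the counting. Rows that name no gene, such as reads in no feature, were left out of library sizes. Reads in no feature were 42.9% in control replicate 1, 7.72% in control replicate 2 and 6.07% in null replicate 1. The lettered libraries had no such rows, so their shares are not known. A set of 25 symbols altered to dates was mapped back.

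Tests on these counts used edgeR 4.0.16 under R 4.3.3 (quasi-likelihood test, TMM scaling, low-count filter by group, Benjamini-Hochberg threshold 0.05), with group alone (4 residual degrees of freedom) and with title set and group (3), and the difference between sets as an interaction (2). DESeq2 1.42.0 was an alternative, as were RLE scaling, scaling without globin genes, no filter, each library left out, a term for Y-linked transcripts, and a correction for exon length added after seeing the data. The procedure was tested on simulated data with a smaller spread between libraries than the real data have. The common coefficient of variation here was 0.61 with group alone, 0.40 set-adjusted and 0.39 with the interaction. The simulation therefore does not show how many changes are found or missed at the real spread. Within each group no pair of libraries was a duplicate, with chi-square per degree of freedom 20.0 or more in the 6 pairs compared. The SEs come from the quasi-likelihood fit and include the spread between libraries, while the 3-count floor covers counting error only.

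The 58 genes, their roles and the further lists were chosen with earlier results of these data known. All 58 could be named. Values in every library were due for the member of each role with the highest mean CPM and those with the lowest and highest set-adjusted ratio, and for every member that rose, and were also given for others picked after their values were seen. Of further mitosis genes, called ones were named, at most 3 per list by size of ratio.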

Additional observations from a re-analysis of the deposited data

How the results depend on the processing

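All 19 called mitosis genes kept their set-adjusted direction under the alternatives that were run, while some ratios that had not passed changed sign. With DESeq2, 3 mitosis genes rose and 9 fell with group alone (697 and 197 of all genes, 1 and 8 of the further mitosis genes), and set-adjusted 28 mitosis genes, 18 further ones and 882 of all genes fell. For the difference between title sets DESeq2 called 1 mitosis gene, out of those to which it gave an adjusted p. Without the filter on low counts 264 genes rose and 16 fell with group alone, 1 of them a mitosis gene, and 723 genes fell set-adjusted, 25 of them mitosis genes; the all-gene median with group alone was then 0.26. With the Y-linked term 161 genes rose and 62 fell, 2 mitosis genes fell, and 0 further mitosis genes rose and 0 fell. With the length correction 27 mitosis genes fell and 1 further gene rose. Gas2l3 turned from 0.015 to -0.023 with DESeq2, -0.019 with RLE scaling, -0.034 without globin genes and -0.031 without the filter. Cks1b (0.025), Cdc25c (0.11) and Dlgap5 (0.16) turned with the Y-linked term, and Ccnb2 (-0.18), Spc25 (-0.045) and Dlgap5 (0.031) with the length correction. The set-adjusted all-gene median, 0.044, was -0.0065 when globin genes were left out of the scaling and -0.019 without null replicate 3. The cause of these shifts was not tested.

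With 1 library left out and group alone, 3 to 109 of all genes rose and 0 to 2 fell, 0 to 1 mitosis genes rose, and the median of the 58 ranged from -0.56 to -0.41. Set-adjusted, 162 to 869 of all genes rose and 40 to 734 fell, 4 to 24 mitosis genes fell, and among further genes 0 to 2 rose and 1 to 19 fell. Set-adjusted ratios whose sign changed ranged from -0.24 to 0.33 for Ccnb2, -0.30 to 0.14 for Aurkb, -0.33 to 0.18 for Nek2, -1.001 to 0.12 for Cenpa, -0.60 to 0.054 for Nuf2, -0.38 to 0.00058 for Nusap1 and -1.25 to 1.21 for Gas2l3. The lettered-set median ranged from -0.59 to -0.38. No paired analysis was possible because the labels give the libraries no replicate numbers that the groups share. Depth limits genes near 0.387 CPM, the level of 3 counts in the shallowest library.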
